A study of Mus musculus with 10 samples.

Results

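The genes described here are 53 regulators of pre-mRNA splicing, chosen by name: the heterogeneous nuclear ribonucleoproteins (hnRNPs), the RBM, muscleblind and CELF proteins, SR-related proteins, the DEAD-box helicases Ddx5 and Ddx17, and factors that recognise the splice sites. They were set among the 23005 genes with a RefSeq transcript and a symbol in the short-read files. The samples were mature CD8 single-positive (CD8SP) and CD4 single-positive (CD4SP) thymocytes of C57BL/6 mice, which are past thymic selection and have entered the cytotoxic or the helper lineage. Thymi of mice 6 to 8 weeks old were pooled in groups of 2 to 3, cells with the other coreceptor were removed with beads, and CD24-negative, TCRβ-positive cells were sorted. The labels name no transgene or treatment for either lineage. Each lineage had 1 long-read library and 4 short-read samples that differ only by sequencing lane and are pooled in 1 deposited file, so every value below is 1 value per lineage without a replicate and no p-value can be given.

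hnRNPs coat nascent transcripts and many of them, with Ptbp1 as the classic case, block the use of nearby exons, whereas SR-related proteins such as Tra2b promote it. U2af2, U2af1, Sf1 and Sf3b1 read the polypyrimidine tract, the AG dinucleotide and the branch point at the 3' end of an intron, and the LUC7-like proteins act with the U1 particle at its 5' end. Many of these genes are themselves spliced into forms that hold a retained intron or an exon with a premature stop codon, which nonsense-mediated decay removes, and in T cells hnRNP L is known for its part in the splicing of the surface phosphatase CD45.

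The alternative exons below are shown for their inclusion among the forms compared. It carries some of the largest differences between the lineages among coding exons of these genes, or was close to equal in a well-known switch. In each line 15 bases of the neighbouring exons stand in lower case and the alternative stretch in capitals, 5' to 3' on the strand of the gene, from the GENCODE M21 transcripts of mouse build GRCm38. The percent of the FPKM of the forms compared that lies on the form with the stretch is given further on.
Luc7l2 cassette exon, chr6:38598785-38598814, plus strand: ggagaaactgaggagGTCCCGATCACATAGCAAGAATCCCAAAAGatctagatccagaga
Celf2 alternative 3' site, chr2:6553965-6553982, minus strand: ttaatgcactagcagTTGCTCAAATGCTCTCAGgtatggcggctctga
Ptbp1 cassette exon, chr10:79860117-79860194, plus strand: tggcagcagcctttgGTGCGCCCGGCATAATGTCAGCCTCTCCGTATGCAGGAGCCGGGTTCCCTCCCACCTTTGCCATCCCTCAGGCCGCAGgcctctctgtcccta
Mbnl1 cassette exon, chr3:60621423-60621458, plus strand: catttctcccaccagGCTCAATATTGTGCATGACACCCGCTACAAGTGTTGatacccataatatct
Tia1 cassette exon, chr6:86419101-86419133, plus strand: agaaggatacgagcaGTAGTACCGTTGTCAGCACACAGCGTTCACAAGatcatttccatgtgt
Hnrnpd cassette exon, chr5:99976534-99976590, minus strand: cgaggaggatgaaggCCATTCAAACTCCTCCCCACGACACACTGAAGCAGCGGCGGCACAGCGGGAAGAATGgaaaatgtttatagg
Hnrnpab cassette exon, chr11:51601750-51601890, minus strand: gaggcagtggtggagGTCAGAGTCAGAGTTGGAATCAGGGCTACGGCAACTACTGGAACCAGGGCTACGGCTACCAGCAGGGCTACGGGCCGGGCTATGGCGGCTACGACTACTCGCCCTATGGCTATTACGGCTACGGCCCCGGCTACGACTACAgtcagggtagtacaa
U2af1 upstream exon of the exclusive pair, chr17:31652502-31652568, minus strand: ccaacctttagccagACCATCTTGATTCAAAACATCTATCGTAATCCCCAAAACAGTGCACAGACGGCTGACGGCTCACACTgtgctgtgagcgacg
U2af1 downstream exon of the exclusive pair, chr17:31651646-31651712, minus strand: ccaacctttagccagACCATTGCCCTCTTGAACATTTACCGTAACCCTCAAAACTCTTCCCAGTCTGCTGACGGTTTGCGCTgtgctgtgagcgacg

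All of these stretches are coding, and apart from the U2af1 pair each is a multiple of 3 bases long, so that its use adds whole codons, which number 10 in Luc7l2, 6 in Celf2, 26 in Ptbp1, 12 in Mbnl1, 11 in Tia1, 19 in Hnrnpd and 47 in Hnrnpab. The U2af1 exons are both 67 bases long and hold the same base at 44 positions (65.7%).

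The markers of the sort separated the files: Cd4 was at 1.69 FPKM (sequenced fragments corrected for transcript length and for depth) in CD8SP and 107 FPKM in CD4SP, and Cd8a was at 241 FPKM in CD8SP and 10.9 FPKM in CD4SP. All 5 cytotoxic markers were called higher in CD8SP and all 4 helper markers higher in CD4SP. Of 12 genes of proliferating cells, 10 were called higher in CD8SP, and their summed level was 225 FPKM in CD8SP and 87.4 FPKM in CD4SP. Of 4 measured genes of immature thymocytes, 2 were called higher in CD4SP, with sums of 27.5 FPKM in CD8SP and 43.8 FPKM in CD4SP. The B cell gene Cd79b was at 5.49 FPKM in CD8SP and 0.583 FPKM in CD4SP, and 2 of the 4 B cell genes were listed at 0 in each file. The part of these cells in the differences below was not tested.

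As a group the splicing regulators were abundant and close in level between the lineages. Of the 53 genes, 51 reached 1 FPKM in the higher lineage, which is the level required for a comparison. Their median level was 30.1 FPKM in CD8SP and 31.0 FPKM in CD4SP, against medians of 7.29 FPKM in CD8SP and 6.23 FPKM in CD4SP over the 9620 genes compared, and 44 of them were at 10 FPKM or more in both lineages. A gene was called where the log2 ratio of CD8SP over CD4SP, taken after adding 0.1 FPKM, was at least 1 in size and the deposited intervals did not overlap. By that rule 1 of the 51 regulators was called, Hnrnpab, higher in CD8SP, against 14.8% of all genes compared, of which 10% were called higher in CD8SP and 4.76% in CD4SP. The same gene alone was called with 1 or 0.01 FPKM added in place of 0.1 (9.16% and 15.4% of all genes), with no filter on low values (15%), with a minimum of 5 FPKM (11%) and by size alone (15.5%). Their median log2 ratio was 0.15, beside 0.22 over all genes compared, so that it was -0.07 after the files were scaled to a median ratio of 0, and ratios of less than 0.22 in favour of CD8SP change sign under that scaling. Unscaled, 41 of 51 (80.4%) lay within 0.5 of 0, as 58.2% of all genes did. The remaining 10 lay past 0.5, 7 with the higher level in CD8SP and 3 with the higher level in CD4SP. This lean towards CD8SP did not hold after scaling. Scaled, Hnrnpab, Mbnl3 and U2af1 lay past 0.5 in favour of CD8SP, while Hnrnpf, Hnrnpm, Sfpq and Elavl1 lay within 0.5. Past 0.5 in favour of CD4SP were then Hnrnpd, Hnrnpdl, Hnrnph1, Celf1, Thrap3, Srrm1, Srrm2 and Luc7l. Without replicates these shares describe the 2 pooled files only.

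**Figure D1:**
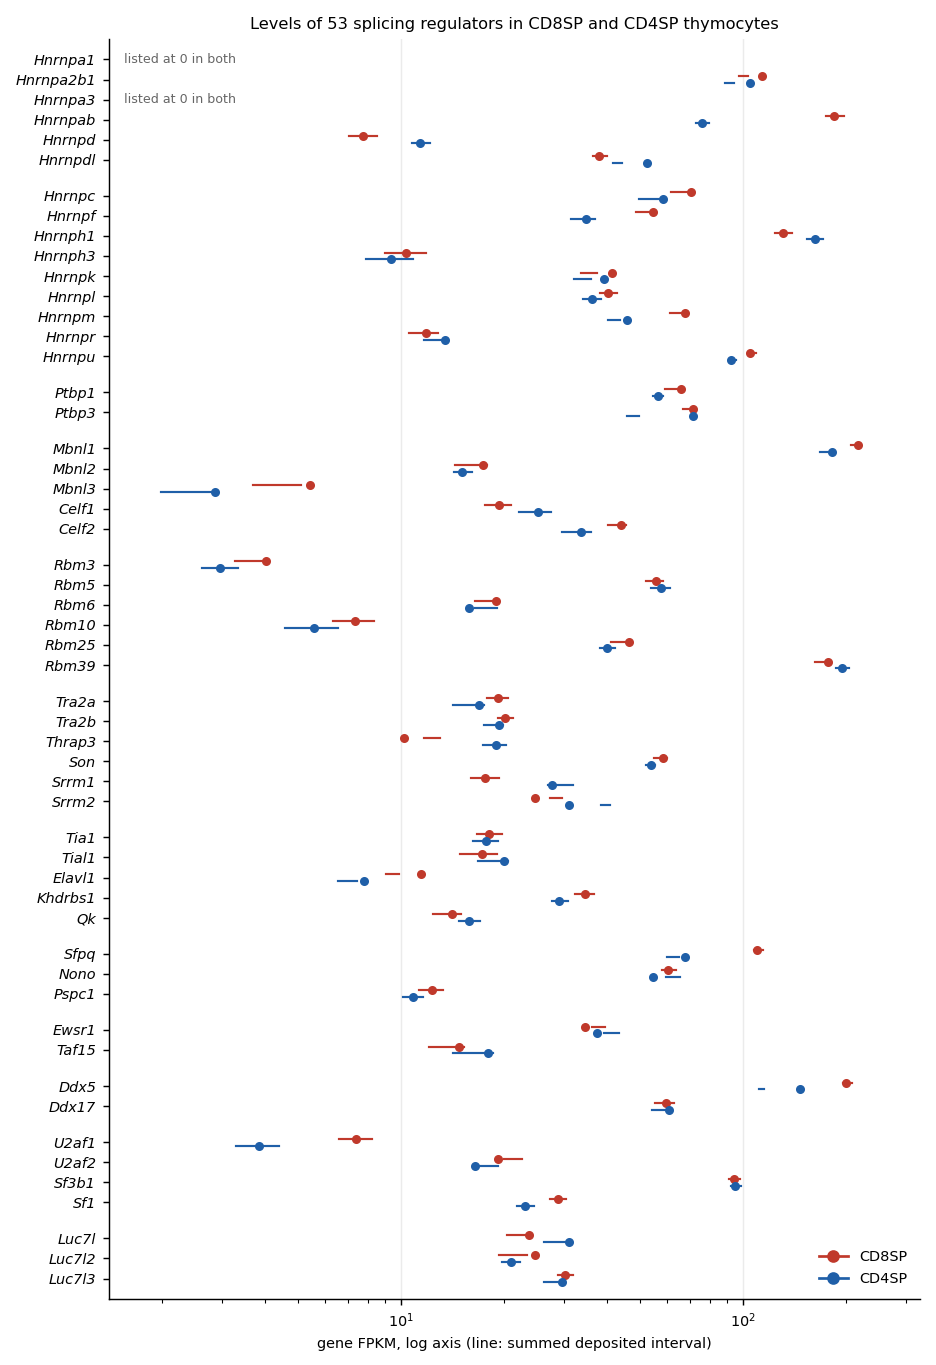
Gene level in FPKM (log axis) of each of the 53 regulators in CD8SP (red) and CD4SP (blue) thymocytes, grouped by role, with lines for the summed deposited intervals. Most pairs of points lie close together, Hnrnpab stands apart at 185 FPKM in CD8SP and 75.9 FPKM in CD4SP, and Hnrnpa1 and Hnrnpa3 are listed at 0 in both files. Where a point lies outside its line, the deposited value itself lies outside its deposited interval.

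Among the hnRNP A/B, AB and D proteins, which bind exonic and intronic silencers or AU-rich elements, Hnrnpab (chromosome 11, 51600100 to 51606881, minus strand) was at 185 FPKM in CD8SP and 75.9 FPKM in CD4SP, a log2 ratio of 1.28. The interval was 175 to 197 FPKM in CD8SP and 73.0 to 79.3 FPKM in CD4SP. Of its CD8SP level, 45.8% lay on assembled transcripts made up of known junctions, a class to which none of its CD4SP level was assigned. Counted by the RefSeq exon bases that every overlapping transcript covers (the exon-based value), Hnrnpab was at 107 FPKM in CD8SP and 75.9 FPKM in CD4SP, a log2 ratio of 0.49 that was not called. That gene is thus higher in CD8SP in each measure, by an amount that depends on the measure. Hnrnpa2b1, the most abundant of this group in CD4SP, was at 114 FPKM in CD8SP and 105 FPKM in CD4SP. Hnrnpd, also known as AUF1, was at 7.76 FPKM in CD8SP and 11.4 FPKM in CD4SP, and its paralog Hnrnpdl at 38.02 FPKM in CD8SP and 52.5 FPKM in CD4SP. Both had the higher level in CD4SP with log2 ratios of -0.55 and -0.46, but the exon-based ratio of Hnrnpd was 0.04. Hnrnpa1 and Hnrnpa3 were listed at 0 in both files, where the assembled transcripts at these loci share introns with a second annotated gene, Gm10052 or Gm6793, and were assigned to neither. The exon-based values of these genes were 14.4 FPKM in CD8SP and 14.4 FPKM in CD4SP for Hnrnpa1, and 4.87 FPKM in CD8SP and 5.89 FPKM in CD4SP for Hnrnpa3. Those of Hnrnpa1 exceed the sums of the shared transcripts, so they rest in part on other overlapping transcripts, which were not traced.

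Of the 9 other hnRNPs, which bind uridine, cytidine, guanosine or CA runs, none was called, and their log2 ratios ran between -0.31 and 0.64. Hnrnpf, which binds G runs, was at 54.4 FPKM in CD8SP and 34.9 FPKM in CD4SP, and Hnrnpm at 67.7 FPKM in CD8SP and 45.9 FPKM in CD4SP. Unscaled, both lie past 0.5 on the log2 scale with separate intervals, but after scaling their log2 ratios were 0.42 and 0.34. Hnrnph1, the close relative of Hnrnpf, was at 131 FPKM in CD8SP and 162 FPKM in CD4SP, but on RefSeq transcripts alone at 48.6 FPKM in CD8SP and 31.1 FPKM in CD4SP, so that its direction depends on the measure. Hnrnpl was at 40.4 FPKM in CD8SP and 36.1 FPKM in CD4SP. The next 3 lay close together. The U-binding Hnrnpc was at 70.6 FPKM in CD8SP and 58.4 FPKM in CD4SP, the C-binding Hnrnpk at 41.3 FPKM in CD8SP and 39.2 FPKM in CD4SP, and the scaffold protein Hnrnpu at 105 FPKM in CD8SP and 92.3 FPKM in CD4SP. Hnrnpr, at 11.8 FPKM in CD8SP and 13.4 FPKM in CD4SP, and Hnrnph3, at 10.4 FPKM in CD8SP and 9.36 FPKM in CD4SP, were the least abundant of these 9 in both files. The intervals of the CD8SP and CD4SP values overlapped for Hnrnpr and Hnrnph3.

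Ptbp1, which represses exons beside pyrimidine tracts, was at 66.0 FPKM in CD8SP and 56.6 FPKM in CD4SP, and Ptbp3, its paralog in blood cells, at 71.2 FPKM in CD8SP and 71.4 FPKM in CD4SP. Mbnl1, the most abundant of the 53 genes in CD8SP, was at 217 FPKM in CD8SP and 182 FPKM in CD4SP. Muscleblind proteins shift exons from the fetal to the adult pattern in muscle, and the remaining 2 were far lower. Mbnl2 was at 17.4 FPKM in CD8SP and 15.1 FPKM in CD4SP. Mbnl3 was at 5.43 FPKM in CD8SP and 2.86 FPKM in CD4SP, a log2 ratio of 0.90, and of 0.58 in the exon-based value. Of the CELF proteins, which often oppose muscleblind proteins on the same exons, Celf1 was at 19.3 FPKM in CD8SP and 25.2 FPKM in CD4SP and Celf2 at 43.97 FPKM in CD8SP and 33.5 FPKM in CD4SP.

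The 6 RBM proteins had log2 ratios between -0.13 and 0.44. Rbm39, a partner of U2AF, was the most abundant at 178 FPKM in CD8SP and 195 FPKM in CD4SP. Rbm5, Rbm6 and Rbm10, which are related by sequence and control exons of apoptosis and Notch genes, were at 55.8, 18.9 and 7.33 FPKM in CD8SP and at 57.6, 15.8 and 5.56 FPKM in CD4SP. Rbm25, which acts with U1, was at 46.3 FPKM in CD8SP and 40.0 FPKM in CD4SP. Rbm3, a cold-inducible protein, was low at 4.04 FPKM in CD8SP and 2.96 FPKM in CD4SP. Its exon-based ratio of 0.88 was the highest of the 51 regulators.

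The SR-related group held the largest ratios in favour of CD4SP. Thrap3, a splicing and transcription coactivator, was at 10.2 FPKM in CD8SP and 18.9 FPKM in CD4SP, a log2 ratio of -0.88. In the exon-based value it was at 14.6 FPKM in CD8SP and 14.7 FPKM in CD4SP, and on its RefSeq transcript alone at 7.12 FPKM in CD8SP and listed at 0 in CD4SP. The sign of its difference therefore depends on how transcripts are assigned. Srrm1 was at 17.6 FPKM in CD8SP and 27.7 FPKM in CD4SP, and Srrm2, a scaffold of nuclear speckles, at 24.7 FPKM in CD8SP and 31.0 FPKM in CD4SP. The exon enhancer proteins Tra2a (19.2 FPKM in CD8SP, 16.9 FPKM in CD4SP) and Tra2b (20.1 FPKM in CD8SP, 19.3 FPKM in CD4SP) were close in level. Son, also found in speckles, was at 58.2 FPKM in CD8SP and 53.9 FPKM in CD4SP.

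Tia1 and Tial1, which help U1 at weak 5' splice sites, were at 18.1 and 17.3 FPKM in CD8SP and at 17.7 and 19.96 FPKM in CD4SP. They were close in both files. Elavl1 (HuR), which binds AU-rich RNA, was at 11.5 FPKM in CD8SP and 7.80 FPKM in CD4SP, a log2 ratio of 0.55. Khdrbs1 (Sam68) was at 34.5 FPKM in CD8SP and 29.0 FPKM in CD4SP, and Qk (quaking) at 14.1 FPKM in CD8SP and 15.8 FPKM in CD4SP. Of the paraspeckle proteins, Sfpq was at 110 FPKM in CD8SP and 67.5 FPKM in CD4SP, a log2 ratio of 0.70, whereas its partners Nono (60.2 FPKM in CD8SP, 54.4 FPKM in CD4SP) and Pspc1 (12.3 FPKM in CD8SP, 10.9 FPKM in CD4SP) were close. The FET proteins Ewsr1 (34.5 FPKM in CD8SP, 37.4 FPKM in CD4SP) and Taf15 (14.8 FPKM in CD8SP, 17.9 FPKM in CD4SP) were both slightly higher in CD4SP.

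The helicase Ddx5 was at 201 FPKM in CD8SP and 147 FPKM in CD4SP, but its exon-based values were 180 FPKM in CD8SP and 197 FPKM in CD4SP, so that the direction turned. Its paralog Ddx17 was at 59.4 FPKM in CD8SP and 60.7 FPKM in CD4SP. U2af1, the subunit that reads the AG of the 3' splice site, was at 7.38 FPKM in CD8SP and 3.84 FPKM in CD4SP, a log2 ratio of 0.92. Its exon-based values were 7.06 FPKM in CD8SP and 6.64 FPKM in CD4SP. The excess of U2af1 in CD8SP thus rests on assembled forms. U2af2 (19.2 FPKM in CD8SP, 16.5 FPKM in CD4SP), the branch point binder Sf1 (28.7 FPKM in CD8SP, 23.1 FPKM in CD4SP) and the U2 component Sf3b1 (93.9 FPKM in CD8SP, 94.8 FPKM in CD4SP) differed less. The LUC7-like proteins Luc7l (23.7 FPKM in CD8SP, 31.0 FPKM in CD4SP), Luc7l2 (24.7 FPKM in CD8SP, 20.96 FPKM in CD4SP) and Luc7l3 (30.1 FPKM in CD8SP, 29.5 FPKM in CD4SP) were not called.

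**Figure D2:**
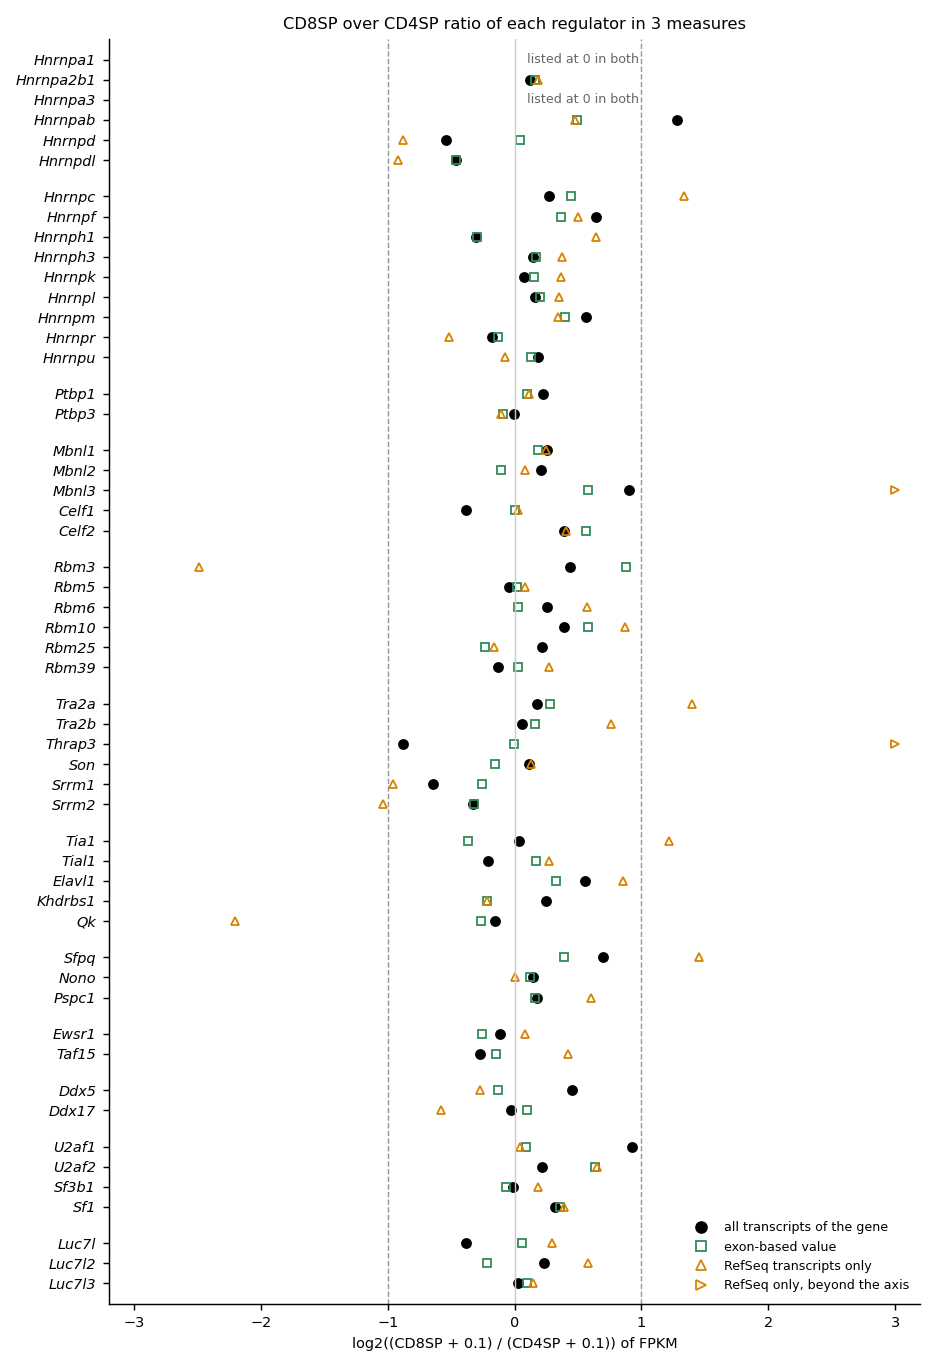
Log2 ratio of CD8SP over CD4SP (FPKM + 0.1) for each regulator by 3 measures: all transcripts of the gene (black), the exon-based value (green) and RefSeq transcripts only (orange, arrows beyond the axis), with dashed lines at -1 and 1. The exon-based ratios stay between -0.46 and 0.88, while 8 regulators pass the call on RefSeq transcripts only, among them Thrap3, Mbnl3 and Qk.

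By the exon-based value, under which Hnrnpa1 and Hnrnpa3 also reach 1 FPKM, none of the 53 regulators was called, against 10.8% of all genes. By this measure their median log2 ratio was 0.09, and 48 lay within 0.5 of 0. On RefSeq transcripts alone 50 regulators could be compared and 8 were called, against 20.6% of all genes (15.1% higher in CD8SP and 5.46% higher in CD4SP). Hnrnpc, Mbnl3, Tra2a, Thrap3, Tia1 and Sfpq were higher in CD8SP and Srrm2 and Qk higher in CD4SP. For Thrap3 and Mbnl3 the RefSeq transcript was listed at 0 in CD4SP. Of the 51 regulators, 15 had the opposite sign on RefSeq transcripts alone and 14 by the exon-based value. Those that turned and differed by 0.5 or more on RefSeq transcripts were Thrap3, Hnrnph1 and Rbm3, the last of which was listed at 0 in CD8SP and at 0.461 FPKM in CD4SP there. After the files were scaled to the same median ratio 2 regulators were called, Hnrnpab and, higher in CD4SP, Thrap3, against 13.5% of all genes. Of the 51 regulators, 28 had separate intervals in the 2 lineages, but 24 had a level outside their own summed interval in at least 1 of the files, so the intervals understate the error of these values.

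Other genes of the splicing machinery gave a similar picture. Of 129 measured, 7 were called, against 14.8% of all genes, and their median log2 ratio was 0.19. Without scaling, none of 11 SR proteins, 8 SR protein kinases or 13 factors of nonsense-mediated decay and the exon junction was called. Among 52 core spliceosome genes, the Sm protein genes Snrpb (47.2 FPKM in CD8SP, 20.9 FPKM in CD4SP), Snrpd2 (19.3 FPKM in CD8SP, 9.51 FPKM in CD4SP) and Snrpg (5.04 FPKM in CD8SP, 0.693 FPKM in CD4SP) were called higher in CD8SP. Among 45 further RNA-binding regulators, Rbm15 (9.44 FPKM in CD8SP, 3.88 FPKM in CD4SP), Rnps1 (12.0 FPKM in CD8SP, 4.98 FPKM in CD4SP) and Esrp2 (1.22 FPKM in CD8SP, listed at 0 in CD4SP) were called higher in CD8SP, although the log2 ratio of Rnps1 on RefSeq transcripts alone was -0.17. Cirbp, the cold-inducible relative of Rbm3, was at 12.7 FPKM in CD8SP and 25.8 FPKM in CD4SP and was called higher in CD4SP, with a log2 ratio of -1.02. After scaling (13.5% of all genes called), Snrpb and Snrpd2 were no longer called. The SR protein Srsf10 (scaled, 16.3 FPKM in CD8SP, 36.2 FPKM in CD4SP) and Snrpc (1.72 FPKM in CD8SP, 7.80 FPKM in CD4SP) were then called higher in CD4SP. By the exon-based value (10.8% of all genes called), Snrpb, Snrpg, Esrp2 and Cirbp were called, but not Snrpd2, Rbm15 or Rnps1.

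Few of the regulators' own annotated splicing events reached 20 points. An event was annotated where both of its forms occur in RefSeq transcripts of the gene, and its percent spliced in (PSI) gives how much of their joint FPKM lies on the longer or upstream form. Where a percent of the transcripts is given below, it is this share. Transcripts with neither form, at times most of the gene's FPKM, are left out. Of 60 annotated events in 25 regulators, 3 (5%) differed by 20 points or more, against 17.2% of 2647 events over all genes, and 44 differed by less than 10 points. With RefSeq transcripts alone as carriers 8 of 57 events (14%) were called, in Ddx17, Hnrnpc, Hnrnpd, Hnrnpf, Luc7l2 and Srrm1, against 16% over all genes, so the low share does not hold under that measure. With all carriers, 16 events (26.7%) differed by 10 points or more, against 37.2% over all genes, and 2 (3.33%) by 30 points or more, against 8.27%. With at least 5 FPKM in both lineages 3 of 49 (6.12%) were called, against 9.56%. The 60 events are not independent, since several in Hnrnpf, Hnrnpc, Luc7l and Hnrnpa2b1 share the same transcripts. Bounds on a PSI were built from the deposited intervals of both forms, and 33 of the 60 events had bounds that did not overlap between the lineages.

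**Figure D3:**
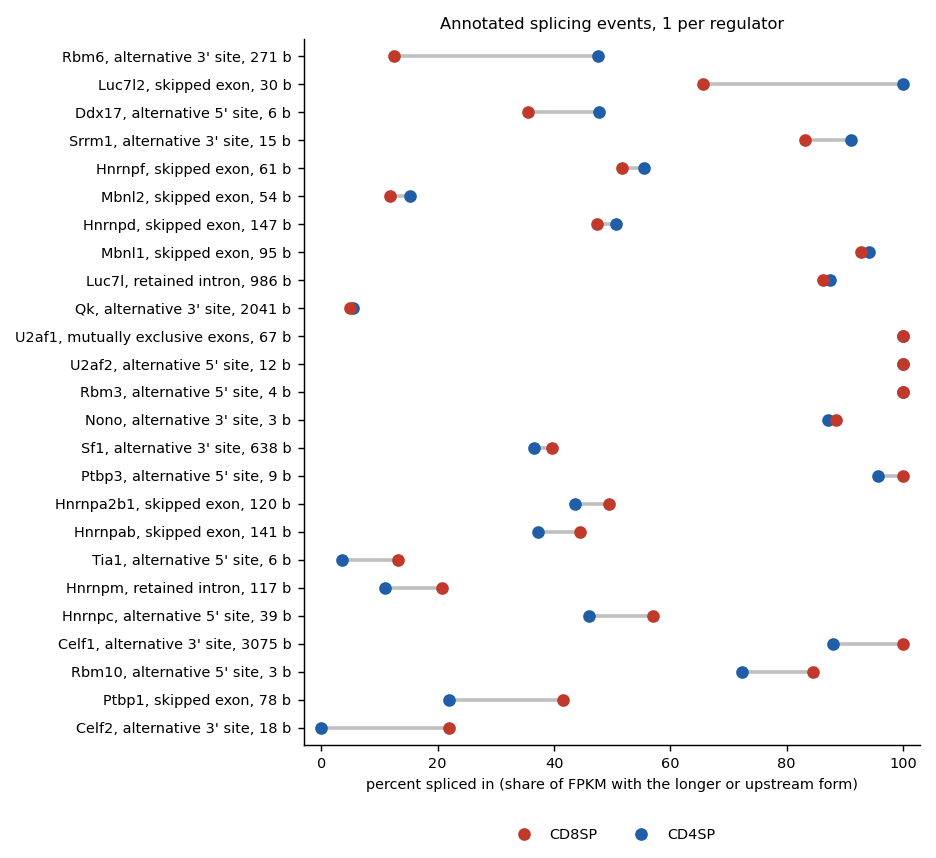
Percent spliced in of 1 annotated event for each of 25 regulators in CD8SP (red) and CD4SP (blue), ordered by the difference. Lines join the lineages, and a single point marks equal values. The Rbm6 and Luc7l2 events have the lower value in CD8SP (12.5 and 65.7%) than in CD4SP (47.6 and 100%), and the Ptbp1 exon and the Celf2 site have the higher value in CD8SP.

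The clearest difference was the 30-base exon of Luc7l2 printed above, exon 8 of 10, which was in 65.7% of the transcripts in CD8SP and in 100% in CD4SP. The form that skips it was at 7.92 FPKM in CD8SP and listed at 0 in CD4SP, beside 15.2 FPKM in CD8SP and 20.96 FPKM in CD4SP for the form with the exon. On RefSeq transcripts alone the inclusion was 51.05% in CD8SP and 100% in CD4SP, the same direction. Of the skipping form in CD8SP, 6.35 FPKM lay on 1 RefSeq transcript that was listed at 0 in CD4SP. The value on RefSeq transcripts alone and the share of that transcript given below are therefore not separate views of the exon. The sequence of this exon and its neighbours codes for part of the arginine and serine-rich tail of the protein. The 18-base stretch of Celf2 was in 22.0% of the transcripts in CD8SP and 0% in CD4SP, but on RefSeq transcripts alone in 0% in both, so this call rests on assembled transcripts. The untranslated 271-base stretch at an alternative 3' site of Rbm6 (chr9:107853404-107853674, minus strand) was in 12.5% of the transcripts in CD8SP and 47.6% in CD4SP. On RefSeq transcripts alone the Rbm6 difference turned round, to 15.4% in CD8SP and 0% in CD4SP. The bounds of the Rbm6 value in CD4SP, 34.96 to 41.3%, and of the Celf2 value in CD8SP, 16.2 to 20.5%, do not contain these values.

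The next largest differences fell just short of 20 points. The 78-base exon of Ptbp1, exon 8 of 14 in the transcript with all cassette exons, was in 41.6% of the transcripts in CD8SP and 21.9% in CD4SP, with bounds of 39.7 to 43.3% in CD8SP and 20.6 to 23.2% in CD4SP. The form with the exon was at 23.6 FPKM in CD8SP and 11.5 FPKM in CD4SP, and the form without it at 33.2 FPKM in CD8SP and 40.9 FPKM in CD4SP. All of this FPKM lay on RefSeq transcripts, so the values on RefSeq transcripts alone are the same by construction. The stretch codes for part of the linker between RNA-binding domains of Ptbp1. Among Mbnl1 forms that leave out the next exon, of 95 bases, the 36-base exon was in 67.3% in CD8SP and 47.9% in CD4SP. These forms summed to 17.3 FPKM in CD8SP and 15.8 FPKM in CD4SP, all on RefSeq transcripts. Forms with the 95-base exon, at 151 FPKM in CD8SP and 123 FPKM in CD4SP, splice to it from the end of the 36-base exon. They are not counted here, so these values do not give the inclusion of the 36-base exon over all Mbnl1 transcripts. The 152-base coding exon of Celf1 was in 35.8% of the transcripts in CD8SP and 17.4% in CD4SP, and an untranslated 26-base exon of Hnrnpc in 82.5% in CD8SP and 65.4% in CD4SP. The Celf1 exon was in 0% in both lineages on RefSeq transcripts alone, where the Hnrnpc exon turned round, to 88.6% in CD8SP and 100% in CD4SP. An untranslated 31-base stretch of Rbm10 was in 10% in CD8SP and 28.6% in CD4SP. None of these 5 was called.

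Several other coding exons differed by less than 10 points. The 33-base exon of Tia1, which separates 2 isoforms of that protein, was in 88.1% of the transcripts in CD8SP and 89.5% in CD4SP. The 57-base exon of Hnrnpd was in 58.1% in CD8SP and 59.8% in CD4SP, and its 147-base exon in 47.4% in CD8SP and 50.7% in CD4SP. On RefSeq transcripts alone, however, the 147-base exon was in 0% in CD8SP and 100% in CD4SP, so the similar values rest on assembled transcripts. The 141-base exon of Hnrnpab was in 44.4% in CD8SP and 37.2% in CD4SP, and the 120-base exon of Hnrnpa2b1 in 49.5% in CD8SP and 43.6% in CD4SP. In the U2af1 pair the upstream exon took 100% in both, but the forms summed to 1.98 FPKM in CD8SP and 1.92 FPKM in CD4SP, so they rest on a low level. Taken as a skipped exon, with assembled forms, the downstream exon was in 23.9% in CD8SP and 0% in CD4SP. These forms summed to 2.60 FPKM in CD8SP and 1.92 FPKM in CD4SP. The skipping form was the RefSeq transcript with the upstream exon, and GENCODE M21 places the inclusion in decay transcripts and in no coding one. This value is thus not a choice between the exclusive exons. Mbnl1 kept its 54-base exon, which is known to steer the protein to the nucleus, low, at 3.7% in CD8SP and 6.4% in CD4SP, and its 95-base exon high, at 92.9% in CD8SP and 94.2% in CD4SP. Each further gene without a called event is described by its annotated event with the highest summed FPKM. Among splice site choices of coding exons, a 6-base stretch of Ddx17 was used in 35.5% in CD8SP and 47.7% in CD4SP, a 15-base stretch of Srrm1 in 83.1% in CD8SP and 91.1% in CD4SP, a 39-base stretch of Hnrnpc in 57.1% in CD8SP and 46.0% in CD4SP, a 6-base stretch of Tia1 in 13.2% in CD8SP and 3.5% in CD4SP, a 3-base stretch of Rbm10 in 84.5% in CD8SP and 72.4% in CD4SP, and a 9-base stretch of Ptbp3 in 100% in CD8SP and 95.8% in CD4SP. When RefSeq transcripts alone were used, the stretches of Ddx17 (15.2% in CD8SP, 47.0% in CD4SP) and Srrm1 (57.5% in CD8SP, 89.5% in CD4SP) passed 20 points, and those of Hnrnpc (34.9% in CD8SP, 43.6% in CD4SP) and Tia1 (7.79% in CD8SP, 10.55% in CD4SP) turned round. With all carriers the difference was smaller for the long last exon of Qk (4.9% in CD8SP, 5.4% in CD4SP) and that of Sf1 (39.6% in CD8SP, 36.6% in CD4SP, but 27.8% in CD8SP and 38.9% in CD4SP on RefSeq transcripts alone), and 0 for a 12-base stretch of U2af2 and a 4-base stretch of Rbm3, both at 100% in each lineage. A 61-base untranslated exon of Hnrnpf was in 51.7% in CD8SP and 55.4% in CD4SP, a 54-base exon of Mbnl2 in 11.8% in CD8SP and 15.2% in CD4SP, a 3-base untranslated stretch of Nono in 88.4% in CD8SP and 87.1% in CD4SP, and a 3075-base untranslated end of Celf1 in 100% in CD8SP and 88.0% in CD4SP. Annotated introns of Luc7l (986 bases) and Hnrnpm (117 bases) were kept in 86.2% and 20.8% in CD8SP and in 87.4% and 10.9% in CD4SP.

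Of the 20 annotated skipped exons, 16 are coding and 12 of these are multiples of 3 bases, and 1 of the 20 was called, against 16.5% of skipped exons over all genes.

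Once the forms assembled in either file were included, the share that differed was above that of all genes. Of 1139 events in 51 regulators, 408 (35.8%) differed by 20 points or more, against 19.2% of 75092 events over all genes. Of these, 176 had the higher PSI in CD8SP and 232 in CD4SP. At 5 FPKM or more 267 of 907 (29.4%) were called, against 8.65% over all genes. Hnrnph1 with 87 events and Rbm39 with 86 held the most, and 33 and 51 of these were called. Transcripts were assembled in each file separately, a form absent from a file gives 0 or 100%, and the regulators are more abundant than most genes. The part of their level in these counts was not tested. With both forms above 0 FPKM in both files, 63 of 350 events (18%) in 48 regulators were called, against 11.5% over all genes, 21 with the higher PSI in CD8SP and 42 in CD4SP.

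Retained introns made up 41 of these 63. Of 200 retained introns with both forms in both files, in 40 regulators, 41 (20.5%) were called, against 10.3% over all genes. The intron was kept more in CD8SP in 12 of them and more in CD4SP in 29, where the background shares were 4.07% and 6.25%. Several of these introns overlap or rest on the same transcripts, as in Hnrnpk, Thrap3, Hnrnpc and Rbm5, so these are not counts of separate introns. In Hnrnph3 the 87-base intron at chr10:63015715-63015801 was kept in 27.2% of the transcripts in CD8SP and 90.6% in CD4SP. In Hnrnph1 the 77-base intron at chr11:50382872-50382948 was kept in 41.5% in CD8SP and 95.3% in CD4SP, and in Rbm39 the 878-base intron at chr2:156176458-156177335 in 5.7% in CD8SP and 58.5% in CD4SP. All 3 have bounds that do not overlap, and none of the 3 is annotated as retained in GENCODE M21. The Rbm39 forms compared summed to 60.2 FPKM in CD8SP and 94.9 FPKM in CD4SP, of 178 FPKM and 195 FPKM for the gene. GENCODE M21 places splicing of this Rbm39 intron only in transcripts marked for decay. The Rbm39 values are thus not shares of all its transcripts. The Hnrnph1 forms compared summed to 38.7 FPKM in CD8SP and 31.6 FPKM in CD4SP, of 131 FPKM and 162 FPKM for the gene. Left out were Hnrnph1 forms that splice the same 5' site to a nearer 3' site. Set against splicing of the 77-base intron, these took 77.4% in CD8SP and 98.8% in CD4SP. GENCODE M21 lists splicing to the nearer site but not of the 77-base intron itself. The Hnrnph1 values therefore depend on use of an unannotated 3' site and are not the share of all Hnrnph1 transcripts that keep the intron. In Srrm1 a 289-base intron was kept in 18.1% in CD8SP and 79.6% in CD4SP. The Srrm1 forms compared summed to 8.39 FPKM in CD8SP and 13.9 FPKM in CD4SP, of 17.6 FPKM and 27.7 FPKM for the gene. In Hnrnpd a 1801-base intron was kept in 5.6% in CD8SP and 61.9% in CD4SP. In the opposite direction, the 853-base intron of Hnrnpk at chr13:58396900-58397752 was kept in 51.6% in CD8SP and 8.0% in CD4SP, and a 2308-base intron of Sfpq in 43.1% in CD8SP and 12.5% in CD4SP. Other introns of Hnrnpk were kept more in CD4SP, among them one of 78 bases at 30.1% in CD8SP and 60.4% in CD4SP. These Hnrnpk and Sfpq values lie outside their bounds in both lineages, which for the 853-base intron were 40.9 to 46.0% in CD8SP and 8.203 to 9.92% in CD4SP, and so does the Srrm1 value in CD4SP. Both U2af1 introns in this set, of 2410 and 3607 bases, were also kept more in CD8SP, at 64.2 and 65.7% against 40.2 and 44.6% in CD4SP.

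Summed by gene, retained-intron forms carried a large share of the regulators' level in both lineages. The median share of a gene's FPKM on assembled forms with a retained RefSeq intron was 26.8% in CD8SP and 24.9% in CD4SP for the 51 regulators, beside 6.07% in CD8SP and 9.42% in CD4SP for 8699 genes at 1 FPKM or more in both. The share was higher in CD8SP in 22 regulators and in CD4SP in 26. It differed by 20 points or more in 14 (27.5%), against 14.5% over all genes. Of these 14, 4 had the higher share in CD8SP and 10 in CD4SP, where the background shares were 4.67% and 9.85%. Tia1 was at 36.2% in CD8SP and 72.1% in CD4SP, Tra2b at 27.9% in CD8SP and 55.9% in CD4SP, and Celf1 at 12.5% in CD8SP and 43.9% in CD4SP. Ddx5 was at 31.3% in CD8SP and 0% in CD4SP, Hnrnpdl at 32.0% in CD8SP and 6.7% in CD4SP. Hnrnph1 (62.9% in CD8SP, 73.4% in CD4SP) and Taf15 (63.5% in CD8SP, 66.9% in CD4SP) were high in both lineages. In Hnrnph3, as in the intron above, the share was 27.2% in CD8SP and 90.6% in CD4SP. In other genes the sum and the single intron named above went in opposite directions. The summed share was higher in CD8SP for Rbm39 (50.6% in CD8SP, 35.1% in CD4SP), Srrm1 (35.8% in CD8SP, 23.1% in CD4SP) and Hnrnpd (60.2% in CD8SP, 49.3% in CD4SP), and higher in CD4SP for Hnrnpk (51.6% in CD8SP, 60.4% in CD4SP). In these libraries, which were depleted of ribosomal RNA, precursor RNA and finished transcripts that keep an intron cannot be told apart.

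**Figure D4:**
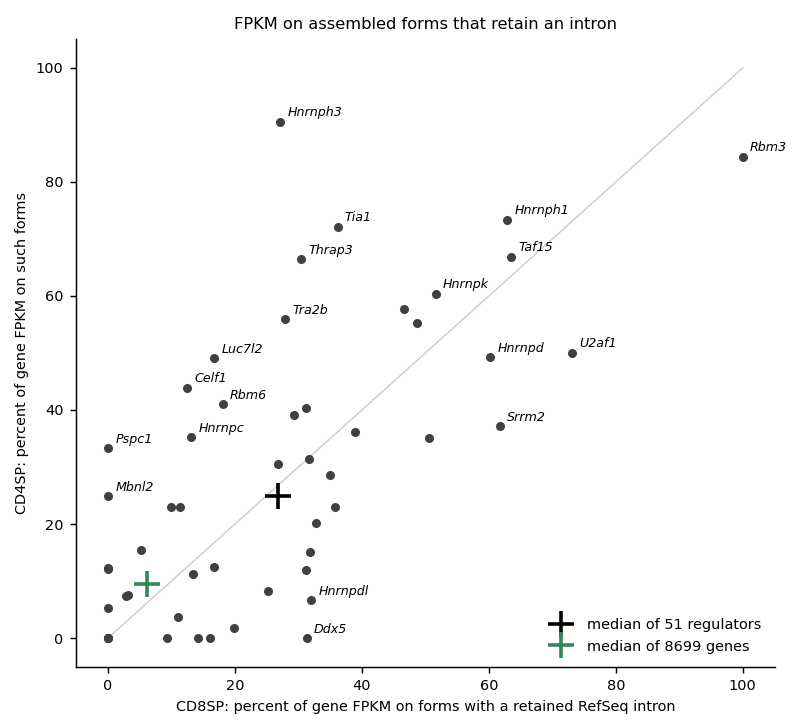
Percent of each regulator's FPKM on assembled forms with a retained RefSeq intron, in CD8SP (x axis) and CD4SP (y axis), with the line of equality. Points above the line have the larger share in CD4SP, such as Hnrnph3, Tia1 and Thrap3, and points below it the larger share in CD8SP, such as Ddx5 and U2af1. The black cross marks the median of 51 regulators (26.8% in CD8SP and 24.9% in CD4SP) and the green cross that of 8699 genes (6.07% in CD8SP and 9.42% in CD4SP).

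Exons that GENCODE places in transcripts marked for nonsense-mediated decay, or whose skipping it places there, gave 27 measured skipped exons. Of these 27, 9 (33.3%) differed by 20 points or more, against 14.6% of 658 such exons over all genes. The PSI was higher in CD8SP for 5 of them and in CD4SP for 4. In 8 of the 9 calls 1 form was at 0 FPKM in 1 of the files. Of the 10 exons with both forms in both files 1 (10%) was called, against 10.6% over all genes. In the other 9 the lineages differed by less than 10 points, including both exons of Rbm5, at 79.6 and 92.1% in CD8SP and 80.8 and 96.6% in CD4SP. The 73-base exon of Rbm39 was included in 29.4% in CD8SP and 19.8% in CD4SP, the 71-base exon of Luc7l in 41.1% in CD8SP and 38.7% in CD4SP, the 105-base exon of Hnrnpdl in 13.3% in CD8SP and 4.2% in CD4SP, and the 80-base exon of Son in 7.1% in CD8SP and 6.7% in CD4SP. The called one was a 212-base exon of Thrap3, at 30.5% in CD8SP and 5.9% in CD4SP. The 56-base exon of Sf3b1 was at 2.1% in CD8SP and 7.2% in CD4SP, and the 66-base exon of Tia1 at 8.1% in CD8SP and 12.8% in CD4SP. Tra2b is known to limit its own level through an exon with stop codons. A 397-base exon of Tra2b in decay transcripts was at 0% in CD8SP and 25.4% in CD4SP, with a form assembled in the CD4SP file only. Also at 0% in CD8SP were a 193-base exon of Thrap3 (95.1% in CD4SP), a 68-base exon of Tial1 (38.5% in CD4SP) and a 47-base exon of Luc7l2 (37.8% in CD4SP). In the other direction, exons of Rbm39 of 1320 and 55 bases were at 34.0 and 30.9% in CD8SP and at 0% in CD4SP, and a 58-base coding exon of Rbm25, whose skipping GENCODE places in decay transcripts, was at 100% in CD8SP and 76.2% in CD4SP. The remaining call is the downstream U2af1 exon given above.

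The share of a gene's FPKM on each RefSeq transcript gave a further view that needs no events. Of 111 RefSeq transcripts of the 51 regulators, 20 (18%), in 18 regulators, differed by 20 points or more, against 22.3% over all genes, 9 with the higher share in CD8SP and 11 in CD4SP. At 30 points 7 (6.31%) were called, against 11.2%. Among the 23 regulators with a single RefSeq transcript 7 (30.4%) were called, against 28.4% of such genes, and there a lower share means that more of the level lay on assembled forms. Qk had a RefSeq transcript at 22.4% of the gene in CD8SP and 88.2% in CD4SP. Assembled transcripts made up of known junctions held 60.6% of the Qk level in CD8SP and 0% in CD4SP. The long last exon of Qk, where its isoforms differ at the C-terminal end, was close with all carriers, at 4.9% in CD8SP and 5.4% in CD4SP. In Hnrnpd, 3 transcripts were each listed at 0 FPKM in 1 of the files, with shares of 0, 0 and 23.4% in CD8SP and 30.3, 20.4 and 0% in CD4SP. Transcripts of Luc7l2 (25.8% in CD8SP, 0% in CD4SP), Mbnl3 (63.7% in CD8SP, 0% in CD4SP) and Thrap3 (69.5% in CD8SP, 0% in CD4SP) were likewise listed at 0 in CD4SP. Shares were lower in CD8SP for the only RefSeq transcript of Ddx5 (60.7% in CD8SP, 100% in CD4SP), Hnrnpdl (68.0% in CD8SP, 93.3% in CD4SP) and Srrm2 (38.2% in CD8SP, 62.8% in CD4SP). So were those of a transcript of Ddx17 (4.4% in CD8SP, 26.6% in CD4SP), Hnrnpab (30.1% in CD8SP, 59.1% in CD4SP), Khdrbs1 (57.1% in CD8SP, 78.6% in CD4SP) and U2af1 (26.8% in CD8SP, 49.96% in CD4SP). Shares were higher in CD8SP for Tra2b (72.1% in CD8SP, 44.1% in CD4SP), Tra2a (59.4% in CD8SP, 25.1% in CD4SP), Tia1 (54.98% in CD8SP, 24.9% in CD4SP), Sfpq (33.2% in CD8SP, 10.9% in CD4SP) and U2af2 (89.2% in CD8SP, 65.7% in CD4SP). The RefSeq form of Ptbp1 without the 78-base exon took 50.2% in CD8SP and 72.3% in CD4SP. The exon's inclusion given above was computed from the same transcripts, so this is not a separate view of it.

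Long reads reached most of the regulators but few of their full structures. They gave 130 of 9476 collapsed isoforms in CD8SP and 109 of 8289 in CD4SP, from 41 of the 53 genes in CD8SP and 33 in CD4SP, with 30 in both. The files used here do not give the number of reads behind an isoform, so isoforms were counted once each, and the intervals below cover counting error only. Mbnl1 with 19 isoforms in CD8SP and 21 in CD4SP and Hnrnpl with 17 in CD8SP and 15 in CD4SP held the most, followed by Thrap3 with 7 in CD8SP and 5 in CD4SP and by Celf1 and Tra2b, each with 5 in CD8SP and 6 in CD4SP. Neither library held an isoform of Hnrnpa1, Hnrnpd, Hnrnpm, Ptbp1, Rbm5, Rbm3, Pspc1, Tia1 or Taf15, so the Ptbp1 and Tia1 exons above have no long-read counterpart here.

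**Figure D5:**
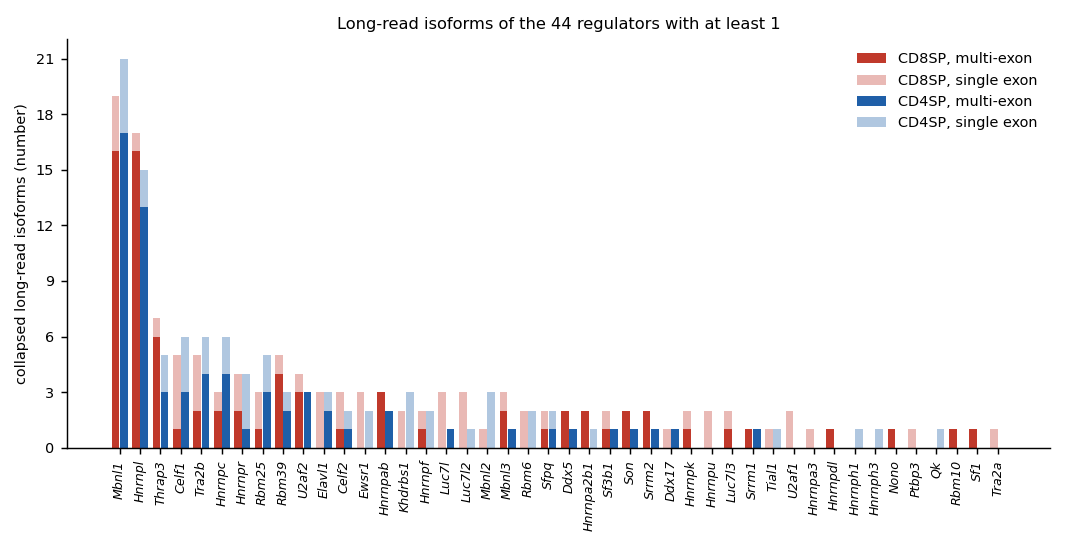
Number of collapsed long-read isoforms for each of the 44 regulators with at least 1, in CD8SP (red, left bar) and CD4SP (blue, right bar), split into multi-exon (dark) and single-exon (light) isoforms. Mbnl1 (19 in CD8SP, 21 in CD4SP) and Hnrnpl (17 in CD8SP, 15 in CD4SP) stand above the rest in both libraries.

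Single-exon isoforms made up 40.8% of the regulators' isoforms in CD8SP (95% exact binomial interval 32.2 to 49.7%) and 38.5% in CD4SP (29.4 to 48.3%), beside 54.6% in CD8SP and 57.1% in CD4SP for other annotated genes. Isoforms whose genomic sequence after the 3' end was 60% A or more, where priming inside the transcript is possible, made up 37.7% in CD8SP and 43.1% in CD4SP, beside 47.5% in CD8SP and 51.6% in CD4SP for other annotated genes. Full matches to a reference transcript numbered 14 (10.8%) in CD8SP and 10 (9.17%) in CD4SP, beside 11.7% in CD8SP and 11.3% in CD4SP for other annotated genes, and 6 reference transcripts were matched in both. One of these was Mbnl1-207, a transcript with the 36-base exon printed above, and another Tra2b-201. Of the isoforms with a prediction, 19 of 67 (28.4%, interval 18.01 to 40.7%) in CD8SP and 18 of 56 (32.1%, interval 20.3 to 46.0%) in CD4SP were predicted targets of decay, beside 16.9% in CD8SP and 19.8% in CD4SP for other annotated genes, but 14 in each library came from Mbnl1. Isoforms that keep an intron numbered 19 of 77 multi-exon isoforms (24.7%) in CD8SP and 14 of 67 (20.9%) in CD4SP, beside 25.4% in CD8SP and 29.2% in CD4SP for other annotated genes. Hnrnpl gave 12 of them in CD8SP and 9 in CD4SP. With 1 library per lineage and isoforms of 1 gene sharing exons, the libraries were not tested against each other.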

How the data were processed

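Short-read libraries (paired-end, ribosomal RNA depleted) and long-read libraries (full-length cDNA, PacBio) were made from sorted thymocytes, per the labels' protocols. The submitters' processing notes name GSNAP, FastQC, Trimmomatic, RSEM 1.3.1, TopHat2 2.0.14, Cufflinks 2.1.1 and GRCm38, without their roles. The authors deposited 1 transcript file per lineage with FPKM values and an interval per RefSeq or assembled transcript, and a long-read isoform table per lineage, in which, per the file headers, 1 column is the percent of A downstream of each 3' end. No file used here gives read totals, so depth is unknown.

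Gene FPKM was summed over RefSeq transcripts and assembled multi-exon transcripts that share an intron with that gene only. The exon-based value counted every transcript of at least 200 bases on the gene's strand by the share of RefSeq exon bases it covers. Genes were compared at a higher FPKM of at least 1 and called at a log2 ratio of at least 1 (0.1 FPKM added) with separate intervals. Splicing events of 7 types were built from intron chains for each gene, required 1 FPKM in both lineages, and were called at 20 points. A retained intron needed 10 bases of exon on each side. Named were every annotated event past 20 points, for other genes the annotated event with the highest summed FPKM, and every RefSeq share past 20 points. Further events, introns and the sequences printed were chosen after their values were seen. Positions were checked against GENCODE M21, where 678 of 681 RefSeq introns of these genes were identical. A further TPM table was not used because no gene names go with its identifiers here. Python 3.11.15, numpy 2.4.6 and pandas 2.3.3 were used, and event building was tested on simulated transcripts. Of the other gene lists, 1 splicing gene and 1 marker are not reported here and were left out of the counts. The regulators, the other gene lists and the views by retained intron and decay exon were chosen with earlier results of these data known.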

Additional observations from a re-analysis of the deposited data

How the results depend on the processing

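Of the 51 regulators compared, 1 was called with 1 or 0.01 FPKM added, with no filter on low values, with a minimum of 5 FPKM and by size alone. After scaling the files to a median log2 ratio of 0 (a shift of 0.22 over 8699 genes) 2 were called, Hnrnpab and Thrap3, on RefSeq transcripts alone 8, and by the exon-based value 0. The calls in the other splicing lists went to 12 on RefSeq transcripts alone and 4 by the exon-based value. On RefSeq transcripts alone the sign of 15 of the 51 regulators turned, and among ratios with a call in either setting it turned to 6.17 for Thrap3 and -0.17 for Rnps1, and the Rbm6 difference in percent spliced in turned to 15.4 points. The annotated events called, 3 of 60, were 3 of 49 at 5 FPKM, 16 of 60 at 10 points, 2 of 60 at 30 points and 8 of 57 on RefSeq transcripts alone. Over all events 63 of 350 were called with both forms in both files and 267 of 907 at 5 FPKM. RefSeq transcript shares called at 30 points were 7 of 111. The shares over all genes under these settings stand in the results above. Long-read isoforms were 77 in CD8SP and 67 in CD4SP when multi-exon, and 81 in CD8SP and 62 in CD4SP without A-rich ends. The cause of these changes was not tested. No paired analysis was possible because 1 file per lineage pools the lanes. Without replicates, reads or depth, differences between the files include the error of sampling, assembly and transcript assignment.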
